A study of Sus scrofa with 17 samples.

Results

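The genes described here are the nuclear factors that build mitochondria and copy and transcribe their DNA, measured by RNA sequencing in the longissimus muscle of weaned piglets on 3 diets. They are PPARGC1A, PPARGC1B, ESRRA, NRF1, TFAM, TFB2M, POLRMT, POLG, TWNK and LONP1, 10 of the 31908 genes in the deposited count table. These 10 were chosen by symbol, with earlier results of these data known. The animals were male Large White × Duroc piglets aged 28 days at entry, kept singly in metabolic cages and pair-fed for 2 weeks after 5 days of adaptation. Control piglets received a diet of wheat, maize and soybean meal (n = 6), UL piglets a diet in which 7% was replaced with the green seaweed Ulva lactuca (n = 6), and ULU piglets the UL diet with 0.01% of ulvan lyase, an enzyme that cuts ulvan, a cell wall polysaccharide of the seaweed (n = 5). Each library was 1 piglet, and the sample numbers in the labels are used as names (control 21 to 26, UL 27 to 32, ULU 40 to 44).

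The nuclear and mitochondrial genomes both encode parts of the respiratory chain, so muscle needs a programme that links them. The coactivators PGC-1α and PGC-1β (PPARGC1A and PPARGC1B) bind no DNA themselves and work through transcription factors such as ERRα (ESRRA) and NRF1, whose targets include genes of the respiratory chain and of mitochondrial DNA upkeep. In the organelle, TFAM packs the DNA and, with TFB2M and the RNA polymerase POLRMT, starts its transcription, while the DNA polymerase POLG and the helicase TWNK copy it and the protease LONP1 degrades damaged proteins and TFAM itself. PGC-1α is known in muscle for its response to exercise, fasting and cold and for its abundance in slow, oxidative fibres.

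None of the 10 genes passed the test for a difference between diets. The edgeR quasi-likelihood test could be run on 9 of them, and 0 of 9 passed an adjusted p of 0.05 in UL vs control, ULU vs control or ULU vs UL. Over all 14203 genes tested, 0% passed that threshold in UL vs control, 2.98% in ULU vs control and 0.0352% in ULU vs UL (0.00704% higher and 0.0282% lower). With the additional threshold of 1 on the log2(fold change) that the study used, these shares were 0%, 0.415% and 0.0141%. At an unadjusted p under 0.05, 1 of the 9 genes was counted in each comparison, beside 10.8%, 18.9% and 10.8% of all genes. The share of counted reads on the mitochondrial chromosome (MT) did differ, from 14.8% in control to 11.6% in UL and 10.2% in ULU, as described after the genes themselves.

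Levels are given as CPM, the read count of a gene scaled to a common library total, on library sizes scaled by the trimmed mean of M values (TMM). Libraries held 16137365 to 26546810 counted reads, and the median library of ULU (22320520) was deeper than that of control (17240387). In a library 3 reads corresponded to 0.113 to 0.186 CPM before the TMM scaling. UL 27 and ULU 40 stood apart on chromosome MT, with 11 and 10 reads of ATP8, a subunit of the ATP synthase, against 14026 to 33900 reads in the other 15 libraries. Both also had the lowest MT share of their diet, and UL 27 was high for several of the genes below, so results that rest on them are also given without them. In a bulk sample, fewer cells of a type and less RNA per cell cannot be told apart.

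**Figure D1:**
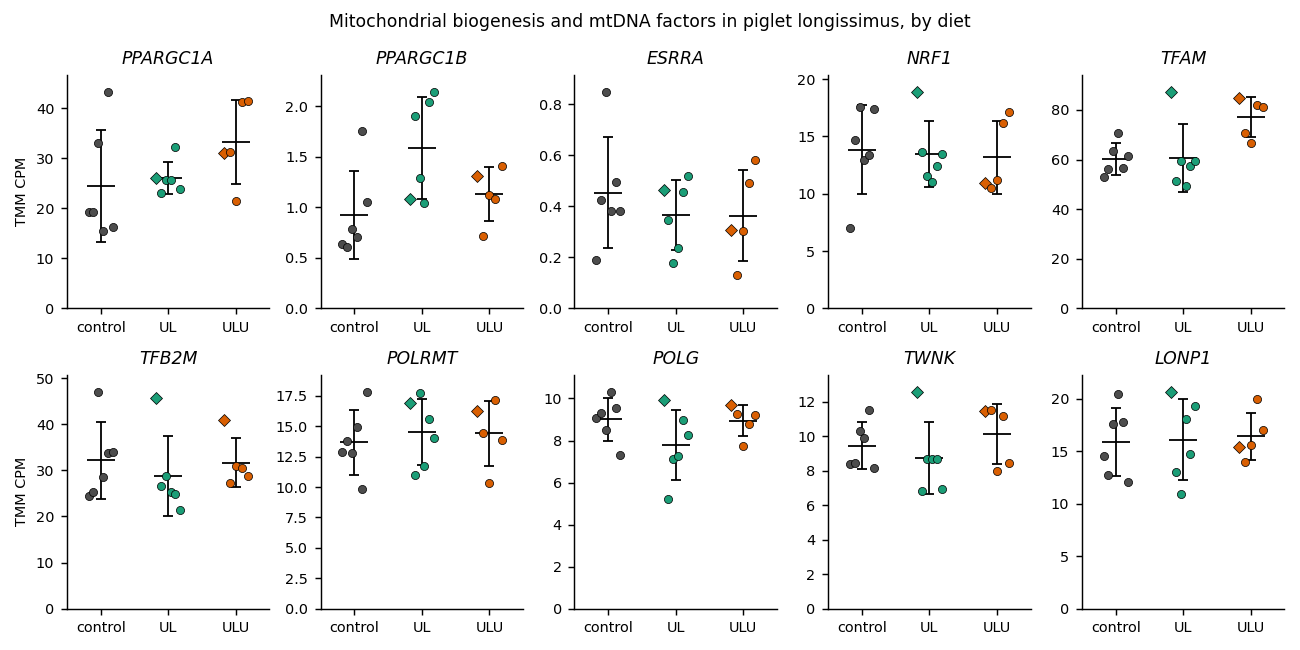
TMM CPM of the 10 genes in each of the 17 libraries by diet (circles; diamonds mark UL 27 and ULU 40, the libraries with few ATP8 reads), with the mean (bar) and SD (whiskers) of the diet; each vertical axis starts at 0 and has its own scale. For TFAM the ULU libraries lie at 66.5 to 84.8 CPM, and the UL library marked with a diamond lies at 87.3 CPM, above all others.

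PPARGC1A, on chromosome 8 of the Sscrofa11.1 assembly (chr8:17841844-17961909), was spread most widely in control muscle. The control libraries ranged from 15.5 to 43.3 CPM with a median of 19.3 CPM, and the UL libraries from 23.2 to 32.3 CPM with a median of 25.6 CPM. The ULU libraries had 31.1, 31.3, 21.4, 41.2 and 41.4 CPM. Thus 4 of the control libraries were below every UL and ULU library, while control 25 was the highest of all and control 23, at 33.1 CPM, was above all UL libraries. The mean was 24.4 ± 11.2 CPM in control (SD, n = 6), 26.1 ± 3.24 CPM in UL (SD, n = 6) and 33.3 ± 8.36 CPM in ULU (SD, n = 5). ULU vs control gave a log2(fold change) of 0.445 (standard error 0.235, 95% interval -0.06 to 0.95, edgeR adjusted p = 0.317), a difference within the spread between piglets. Here and below, the 95% intervals were taken on 14 residual degrees of freedom. Over 17 fits that left out 1 library it was 0.34 to 0.69, with edgeR adjusted p-values of 0.0511 to 0.523. Both the highest value and the lowest adjusted p came without control 25. With all libraries, the log2(fold change) was 0.35 in ULU vs UL (edgeR adjusted p = 0.640) and 0.09 in UL vs control (edgeR adjusted p = 0.919). With log2 library size as a covariate, ULU vs control was 0.27 (edgeR adjusted p = 0.757) and ULU vs UL was 0.18 (edgeR adjusted p = 0.949).

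PPARGC1B, the second coactivator of the family (chr2:150823373-150919378), was present at about 1 CPM. Control libraries ranged from 0.612 to 1.76 CPM with a median of 0.748, and UL libraries from 1.04 to 2.14 CPM with a median of 1.60. The ULU libraries had 1.31, 0.714, 1.13, 1.083 and 1.41 CPM. Control 25 was again the highest control library, and with control 26 the only one inside the UL range. The log2(fold change) was 0.76 in UL vs control (standard error 0.31, 95% interval 0.09 to 1.42, unadjusted p = 0.0246, edgeR adjusted p = 0.389), 0.28 in ULU vs control (edgeR adjusted p = 0.681) and -0.475 in ULU vs UL (edgeR adjusted p = 0.646). The counts behind these values were 10 to 39 reads per library, the fewest among the genes that were tested.

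ESRRA, the orphan nuclear receptor ERRα and a main partner of both coactivators, could not be measured well from this table. It had 2 to 14 reads per library, or 0.130 to 0.848 CPM, and was removed by the filter on low counts. Of its 3247 annotated exonic bases (chr2:7803510-7813836, minus strand), 60.8% were shared with neighbouring genes, namely 53.4% with PRDX5 on the same strand and 45.8% with TRMT112 on the other. Reads in bases shared by several genes were left uncounted by the setting that the authors used, so the ESRRA value covers the remaining 1274 bases only. Its mean was 0.454 CPM in control, 0.366 CPM in UL and 0.363 CPM in ULU, and the ranges of the diets overlapped. A diet difference was not detectable at this depth.

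NRF1, a DNA-binding factor for many respiratory chain genes (chr18:18998905-19142628), ranged from 6.996 to 17.6 CPM in control, 10.99 to 18.9 CPM in UL and 10.5 to 17.1 CPM in ULU. Its lowest library was control 21 and its highest UL 27. The means were 13.8 ± 3.88, 13.5 ± 2.85 and 13.2 ± 3.19 CPM (SD, n = 6, 6 and 5). The log2(fold change) was -0.04 in UL vs control (95% interval -0.46 to 0.39) and -0.07 in ULU vs control (95% interval -0.51 to 0.38), with edgeR adjusted p-values of 0.969 and 0.891.

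TFAM, the packing and transcription factor of mitochondrial DNA (chr14:92259403-92279550), was the member with the most distinct ULU values. The control libraries ranged from 53.0 to 70.6 CPM with a median of 59.1 CPM. The UL libraries ranged from 49.5 to 87.3 CPM with a median of 58.4 CPM, and all but UL 27 were at or below 59.6 CPM. The ULU libraries had 84.8, 70.8, 66.5, 82.1 and 81.2 CPM, and only ULU 42 fell below the highest control library. The mean was 60.2 ± 6.35 CPM in control, 60.7 ± 13.7 CPM in UL and 77.1 ± 7.93 CPM in ULU (SD, n = 6, 6 and 5).

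For TFAM the log2(fold change) was 0.36 in ULU vs control, a 1.28-fold difference (standard error 0.13, 95% interval 0.08 to 0.64, unadjusted p = 0.0130, edgeR adjusted p = 0.135). In ULU vs UL it was 0.345, a 1.27-fold difference (standard error 0.13, 95% interval 0.07 to 0.62, unadjusted p = 0.0159, edgeR adjusted p = 0.353). DESeq2 fitted to control and ULU alone gave 0.365 with an adjusted p of 0.0258 for the first, so this call depended on the tool. Without UL 27, the edgeR adjusted p was 0.0523 in ULU vs control and 0.0925 in ULU vs UL, where the log2(fold change) was 0.48. These were the lowest of 17 fits that left out 1 library, and the highest were 0.262 and 0.532. With log2 library size as a covariate, ULU vs control was 0.34 (edgeR adjusted p = 0.444). Without UL 27 and ULU 40 together, the log2(fold change) was 0.32 in ULU vs control (edgeR adjusted p = 0.116) and 0.44 in ULU vs UL (edgeR adjusted p = 0.168). In UL vs control it was 0.01 (95% interval -0.26 to 0.28), and -0.12 without UL 27.

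TFB2M, which opens the promoter for the mitochondrial polymerase (chr10:19028813-19046327), ranged from 24.4 to 46.9 CPM in control and from 21.4 to 45.7 CPM in UL. The ULU libraries had 40.8, 27.3, 31.0, 30.5 and 28.8 CPM. The high values belonged to single libraries, control 23, UL 27 and ULU 40, and the other libraries of all diets lay between 21.4 and 33.9 CPM. Its log2(fold change) was -0.16 in UL vs control (95% interval -0.545 to 0.23) and -0.02 in ULU vs control (95% interval -0.425 to 0.38). Without UL 27 and ULU 40 these values were -0.34 and -0.13, with edgeR adjusted p-values of 0.409 and 0.723.

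POLRMT, the polymerase itself (chr2:77694234-77711630), had means of 13.7 ± 2.63 CPM in control, 14.5 ± 2.74 CPM in UL and 14.4 ± 2.66 CPM in ULU (SD, n = 6, 6 and 5). The diets covered nearly the same range, 9.86 to 17.8, 11.03 to 17.7 and 10.3 to 17.2 CPM. Its log2(fold change) was 0.09 (UL vs control) and 0.08 (ULU vs control), with 95% intervals of -0.25 to 0.43 and -0.28 to 0.43.

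The replication genes showed as little difference. POLG (chr7:54889153-54906856) ranged from 7.30 to 10.3 CPM in control, 5.20 to 9.93 CPM in UL and 7.75 to 9.69 CPM in ULU. Its log2(fold change) was -0.21 in UL vs control (95% interval -0.52 to 0.09, edgeR adjusted p = 0.639) and -0.01 in ULU vs control (95% interval -0.33 to 0.31, edgeR adjusted p = 0.978). TWNK (chr14:112066846-112075822) ranged from 8.16 to 11.5 CPM in control and from 6.82 to 12.6 CPM in UL. The ULU libraries fell into a higher and a lower set for TWNK, with 11.5, 11.5 and 11.2 CPM in ULU 40, 41 and 43 and 7.97 and 8.45 CPM in ULU 42 and 44. Its log2(fold change) was -0.115 in UL vs control (95% interval -0.45 to 0.22), 0.095 in ULU vs control (95% interval -0.26 to 0.45) and 0.21 in ULU vs UL (95% interval -0.14 to 0.56).

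LONP1, the matrix protease (chr2:73266258-73286774), had means of 15.9 ± 3.28, 16.1 ± 3.83 and 16.4 ± 2.25 CPM in control, UL and ULU (SD, n = 6, 6 and 5). The lowest and highest libraries, at 10.9 and 20.6 CPM, were both UL. Its log2(fold change) was 0.02 (UL vs control) and 0.05 (ULU vs control), with 95% intervals of -0.33 to 0.37 and -0.32 to 0.42.

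Across the 10 genes, the CPM ranges of the compared diets overlapped in every comparison. Among all genes tested, the ranges did not overlap for 0.852% in UL vs control, 3.39% in ULU vs control and 1.75% in ULU vs UL. The median log2(fold change) of the 9 tested genes was 0.01, 0.08 and 0.14 in the 3 comparisons, beside 0.00, -0.03 and -0.02 over all genes. The numbers above 0 were 5, 6 and 6 of 9, beside 49.5%, 47.0% and 47.0% of all genes. ULU vs control and UL vs control share their control libraries, and ULU vs UL shares libraries with both.

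**Figure D2:**
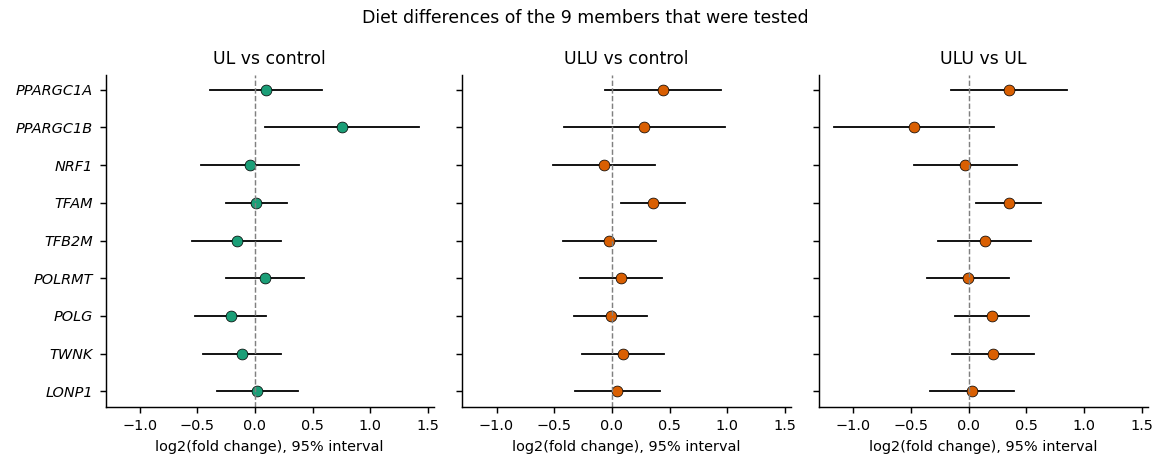
The log2(fold change) (point) with its 95% interval (line) for the 9 tested genes in the 3 comparisons, from the edgeR fit of all 17 libraries; the dashed line marks no difference. The intervals that leave out 0 are those of PPARGC1B in UL vs control (0.09 to 1.42) and of TFAM in ULU vs control (0.08 to 0.64) and ULU vs UL (0.07 to 0.62), and none of the 3 passed the adjusted threshold.

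Between genes, levels were compared per kilobase of annotated exon, as the mean over the 17 libraries. TFAM was the highest at 17.6 ± 3.27 CPM per kilobase (SD, n = 17), followed by TFB2M at 14.4 ± 3.44, and TFAM lay above TFB2M in 15 of 17 libraries. LONP1 followed at 4.98 ± 0.939 and PPARGC1A at 2.53 ± 0.793 CPM per kilobase, each above the next gene in the order in 17 and 13 libraries. POLG at 1.92 ± 0.289, POLRMT at 1.82 ± 0.326 and TWNK at 1.44 ± 0.265 CPM per kilobase came next, and POLG was above POLRMT in only 13 of 17 libraries. NRF1 had 0.671 ± 0.156, PPARGC1B 0.169 ± 0.0681 and ESRRA 0.122 ± 0.0538 CPM per kilobase, with the limit on ESRRA given above. The share of exonic bases that other genes also covered was 22.7% for POLRMT, 21.4% for TWNK, 15.2% for POLG and 1.39% for LONP1. Over the unshared bases alone, POLRMT had 2.35, POLG 2.26 and TWNK 1.83 CPM per kilobase, which turned the order of POLRMT and POLG, and ESRRA had 0.311. The low value of NRF1 is per kilobase of a model with 20141 exonic bases, the longest of the 10.

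From library to library most pairs of these genes had a correlation above 0, but a weak one. With the diet means removed, the 36 pairs among the 9 genes had a median Pearson r of 0.275 for log2 CPM, with a range of -0.253 to 0.638 and 30 pairs above 0. Without UL 27 the median was 0.252 with 28 pairs above 0, and without UL 27 and ULU 40 it was 0.215 with 27 pairs above 0. The median r of the same genes with every other tested gene was 0.00906. The highest were TFAM with TFB2M (r = 0.638), TFB2M with TWNK (r = 0.633), TFAM with POLRMT (r = 0.618) and POLG with TWNK (r = 0.617). Without UL 27 these 4 values were 0.312, 0.398, 0.677 and 0.462, so those of TFAM with TFB2M and of TFB2M with TWNK rested in large part on 1 library. The coactivators PPARGC1A and PPARGC1B had r = 0.430 with each other. Their values were 0.0719 and -0.0871 with TFAM, 0.455 and -0.201 with TWNK, and -0.161 and -0.253 with POLRMT. UL 27 was the highest UL library for TFAM, TFB2M, TWNK, POLG, NRF1 and LONP1.

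The genes most like TFAM by the same measure were DDX39B, an RNA helicase of mRNA export (r = 0.957, n = 17), the nucleolar protein gene NOLC1 (r = 0.943), PNPT1, a mitochondrial RNA-degrading enzyme (r = 0.914), the arginine methyltransferase gene PRMT5 (r = 0.912) and RBMX, an RNA-binding protein (r = 0.909). Without UL 27 these values ran from 0.790 for RBMX to 0.895 for DDX39B. Those most like PPARGC1A were the transcription factor gene FOXO1 (r = 0.836), IDH2, the mitochondrial isocitrate dehydrogenase (r = 0.820), TRAK1, an adaptor of mitochondrial transport (r = 0.814), COPS7A of the COP9 signalosome (r = 0.800) and the gene ENSSSCG00000005901 without a symbol (r = 0.798), and without UL 27 they were 0.803 to 0.852. No gene was in both sets.

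The levels of these factors were set beside the share of counted reads on chromosome MT. This share ranged from 14.05% to 15.9% in control, 8.64% to 14.8% in UL and 8.002% to 11.6% in ULU, and the 95% Wilson interval of a library, which covers counting error only, was at most 0.0171 percentage points to either side. The difference was -3.15 percentage points in UL vs control (exact permutation test, two-sided p = 0.0108, adjusted p = 0.0162 over 3 comparisons) and -4.55 points in ULU vs control (exact permutation test, p = 0.00433, the smallest that 462 splits allow, adjusted p = 0.0130). The ULU and control ranges did not overlap, and the difference of -1.40 points in ULU vs UL was within the spread (exact permutation test, p = 0.260). Without UL 27 and ULU 40 the differences from control were -2.55 and -3.995 points for UL and ULU (adjusted exact permutation p = 0.0325 and 0.0286).

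The 2 classes of MT genes were also counted apart. The 13 protein-coding genes took 11.7% of reads in control, 8.502% in UL and 8.44% in ULU, lower than control in both seaweed diets without overlap (exact permutation p = 0.00217 and 0.00433). Between ULU and UL their share overlapped and differed by -0.0668 points (exact permutation p = 0.918). COX1, a subunit of cytochrome c oxidase, stood apart in control 24 at 25870 CPM and control 25 at 12940 CPM, against 3700 to 6086 CPM in the other controls and 2826 to 6844 CPM in the seaweed libraries. Without COX1 the protein-coding share was 9.12% to 11.96% in control, 6.58% to 9.57% in UL and 6.30% to 9.25% in ULU. It was then still lower in UL and ULU than in control (exact permutation p = 0.00433 and 0.00866), but the ranges overlapped, so the separation of the ranges rested on COX1. The 2 rRNA genes took 3.11%, 3.12% and 1.78%, and were lower in ULU than in control (exact permutation p = 0.00433) and in UL (exact permutation p = 0.0217) but did not differ detectably in UL vs control (exact permutation p = 0.983). On TMM CPM in the edgeR fit, 0 of these 15 genes passed at an adjusted p of 0.05, although 12 of the 13 protein-coding genes were below 0 in UL vs control (median log2(fold change) -0.35) and 11 in ULU vs control (median -0.305). At an unadjusted p under 0.05 there were 5 and 3 of the 13. The 2 rRNA genes were also counted by that rule in ULU vs control and in ULU vs UL, and neither in UL vs control. Of these, ENSSSCG00000018061 had a log2(fold change) of -1.106 in ULU vs UL. Its ranges did not overlap there, at 864.4 to 1865 CPM in ULU and 1926 to 5446 CPM in UL. With DESeq2, the paper listed a mitochondrial rRNA as lower in ULU than in UL, without giving its identifier. The rRNA share without UL 27 and ULU 40 was 3.41% in UL and 1.94% in ULU.

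**Figure D3:**
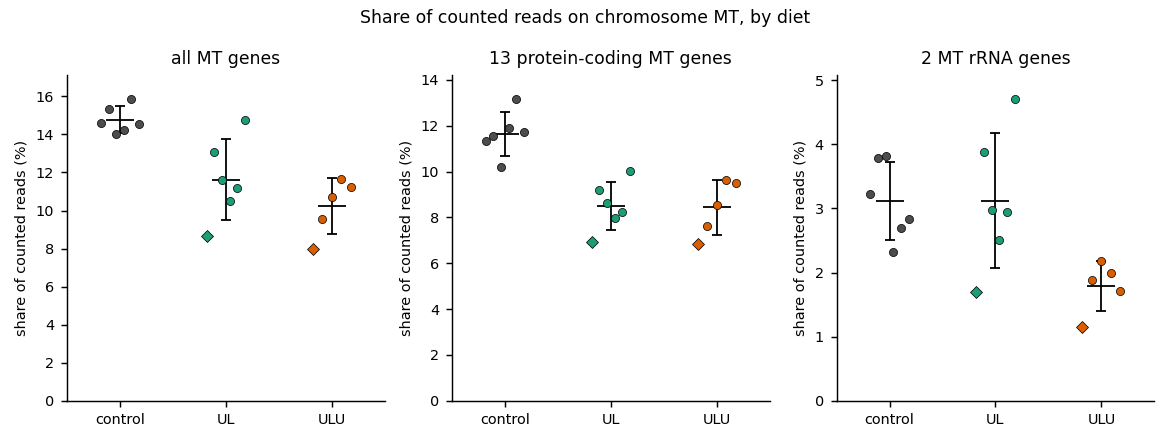
Share of counted reads (%) on all MT genes, on the 13 protein-coding and on the 2 rRNA genes in each library by diet (diamonds mark UL 27 and ULU 40), with the mean (bar) and SD (whiskers). The protein-coding share lies at 10.2% to 13.2% in control and at 6.84% to 10.1% in the seaweed diets, ranges that overlapped once COX1 was left out, and the rRNA share lies at 2.32% to 3.82% in control, 1.70% to 4.71% in UL and 1.15% to 2.17% in ULU.

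Across libraries, the level of 2 genes was tied to the MT share, and neither relation passed the threshold without UL 27 or without UL 32. With the diet means removed, the level of TWNK fell as the share rose (Pearson r = -0.669, permutation p = 0.00317, adjusted p = 0.0285 over 9 genes; Spearman rho = -0.571, permutation p = 0.0183; n = 17), and so did TFB2M by Pearson's measure (r = -0.638, permutation p = 0.00664, adjusted p = 0.0299) but less by rank (rho = -0.321, permutation p = 0.208). Leaving out UL 27 and UL 32, the libraries whose share was farthest from the median once the diet means were removed, changed r to -0.414 and -0.337. Without UL 27 alone, r was -0.480 for TWNK (permutation p = 0.0590) and -0.422 for TFB2M (permutation p = 0.103), and 0 of 9 genes passed. Without UL 27 and ULU 40 it was -0.401 and -0.203. Leaving out UL 32 alone also left 0 of 9 genes past the threshold, so both relations rest on a few libraries. TFAM had r = -0.473 (permutation p = 0.0588, adjusted p = 0.150), which became -0.0439 without UL 27. PPARGC1A had r = 0.0838 (permutation p = 0.747), and PPARGC1B had r = 0.454 (permutation p = 0.0668, adjusted p = 0.150; rho = 0.593, permutation p = 0.0140), the highest of the 9. For PPARGC1B r was 0.601 without UL 27 and ULU 40 (permutation p = 0.0173, adjusted p = 0.155).

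**Figure D4:**
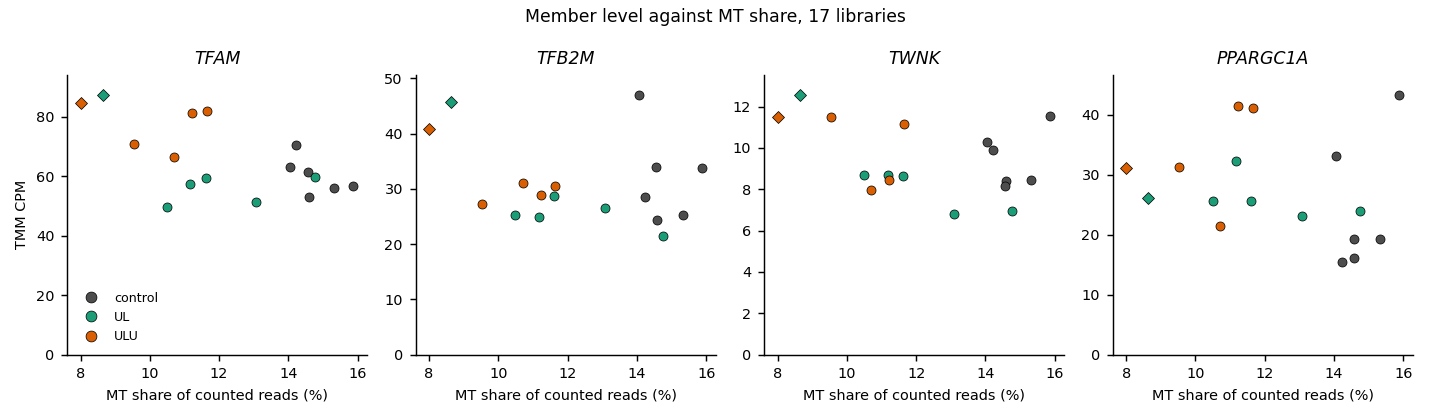
TMM CPM of TFAM, TFB2M, TWNK and PPARGC1A against the MT share of counted reads (%) in the 17 libraries, coloured by diet; diamonds mark UL 27 and ULU 40. For TFAM, TFB2M and TWNK the diamonds lie at the upper left, at shares of 8.64% and 8.002%, and r with the diet means removed was -0.473, -0.638 and -0.669 over all libraries.

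Other genes of the same pathways were counted from wider lists, also chosen by symbol with earlier results of these data known. In UL vs control and ULU vs UL, 0 genes of any list passed an adjusted p of 0.05 (edgeR), where 0% and 0.0352% of all genes did. In ULU vs control 1.99% of all genes were higher and 0.993% lower by that rule. Of 23 tested regulators around PGC-1α, 2 were higher and 1 lower. Of 21 other genes of mitochondrial DNA transcription and replication, 2 were higher. Of 17 genes of mitochondrial RNA processing, 12 of mitochondrial proteases and chaperones, 12 of mitochondrial fusion, fission and mitophagy, and 15 nuclear-encoded targets of the programme, the numbers higher were 1, 1, 2 and 1, and none was lower.

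Among the regulators around PGC-1α, NRIP1, a corepressor (RIP140) known to restrain oxidative genes, was lower in ULU than in control. Its control libraries ranged from 21.8 to 62.7 CPM with a median of 38.4 CPM, and the ULU libraries had 18.98, 22.3, 21.1, 25.6 and 18.1 CPM, and 3 of these 5 were below every control library. The log2(fold change) was -0.96 in ULU vs control (standard error 0.21, edgeR adjusted p = 0.0222) and -0.54 in UL vs control (edgeR adjusted p = 0.330). CAMK2A, a calcium-dependent kinase, rose from 140.2 ± 24.2 CPM in control (SD, n = 6) to 222 ± 51.0 CPM in ULU (SD, n = 5), a log2(fold change) of 0.66 (edgeR adjusted p = 0.0177). PPP3CA, the catalytic subunit of the calcium-dependent phosphatase calcineurin, rose from 231 ± 19.8 to 329 ± 48.9 CPM, a log2(fold change) of 0.51 (edgeR adjusted p = 0.0193). Neither gene's ULU range overlapped the control range. The NRIP1 and PPP3CA calls were each lost in 2 of 17 fits that left out 1 library: NRIP1 without control 23 or ULU 40, with a highest edgeR adjusted p of 0.0570, and PPP3CA without ULU 40 or ULU 43, with 0.0567. GABPA, the DNA-binding part of NRF2 (GABP) in this pathway, had a log2(fold change) of 0.06 in ULU vs control (edgeR adjusted p = 0.821).

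Beside the polymerase, MRPL12, a ribosomal protein that also binds POLRMT, had a log2(fold change) of 0.525 in ULU vs control (32.2 to 46.3 CPM, edgeR adjusted p = 0.0498). RNASEH1, which removes RNA primers and hybrids, had 0.49 (24.3 to 34.1 CPM, edgeR adjusted p = 0.0439). FASTK, of a family of mitochondrial RNA-binding proteins, had 0.46 (19.4 to 26.7 CPM, edgeR adjusted p = 0.0397). These 3 genes lost the call without UL 27 and ULU 40, and kept it in 3, 5 and 10 of the 17 fits that left out 1 library. TFB1M, a relative of TFB2M that methylates mitochondrial rRNA (log2(fold change) -0.05), the elongation factor TEFM (0.00), the single-strand binding protein SSBP1 (0.09) and the mRNA-stabilising LRPPRC (0.05) had edgeR adjusted p-values of 0.897, 0.994, 0.733 and 0.853 in ULU vs control. These genes were picked for their closeness to the members, after their values were known.

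The firmest differences of the lists were in genes of mitochondrial upkeep. MFN2, a fusion protein of the outer membrane, ranged from 53.0 to 67.9 CPM in control, 64.5 to 93.6 CPM in UL and 81.6 to 110.2 CPM in ULU. ULU vs control gave a log2(fold change) of 0.68 (standard error 0.11, edgeR adjusted p = 0.00457). AFG3L2, a protease of the inner membrane, ranged from 28.2 to 32.8 CPM in control, 33.3 to 45.4 CPM in UL and 41.2 to 46.2 CPM in ULU, so that every seaweed library was above every control library. Its log2(fold change) was 0.50 in ULU vs control (edgeR adjusted p = 0.00886) and 0.39 in UL vs control, which did not pass (edgeR adjusted p = 0.152). BCL2L13, a mitophagy receptor, had 42.7 to 56.3 CPM in control, 43.1 to 53.0 CPM in UL and 65.1 to 71.9 CPM in ULU. It was higher in ULU vs control by a log2(fold change) of 0.465 (edgeR adjusted p = 0.0128), and in ULU vs UL by 0.47, without overlap but with an edgeR adjusted p of 0.0683. These 3 calls held in each of 17 fits that left out 1 library, as did that of CAMK2A (highest edgeR adjusted p = 0.0439). MFN2, AFG3L2 and BCL2L13 alone among the list genes named here held with edgeR on control and ULU only. With log2 library size as a covariate, where 12 genes in all passed the adjusted p, none of the list genes did. The log2(fold change) stayed near its value for MFN2 (0.64), AFG3L2 (0.49), BCL2L13 (0.425), NRIP1 (-0.96) and CAMK2A (0.65). For PPP3CA it fell from 0.51 to 0.425 (edgeR adjusted p = 0.209).

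Among the nuclear-encoded targets, ALAS1, the first enzyme of haem synthesis, rose by a log2(fold change) of 0.40 in ULU vs control (edgeR adjusted p = 0.0391). The call held in 8 of 17 fits that left out 1 library (highest edgeR adjusted p = 0.110, without ULU 43) and in 3 of 7 other settings. The targets as a whole had a median log2(fold change) of 0.30 with 14 of 15 above 0, and the proteases and chaperones 0.23 with 12 of 12 above 0, and the fusion, fission and mitophagy genes 0.20 with 9 of 12 above 0, beside -0.03 and 47.0% over all genes. The regulators around PGC-1α, the transcription and replication genes and the RNA processing genes had medians of 0.06, 0.02 and 0.02.

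**Figure D5:**
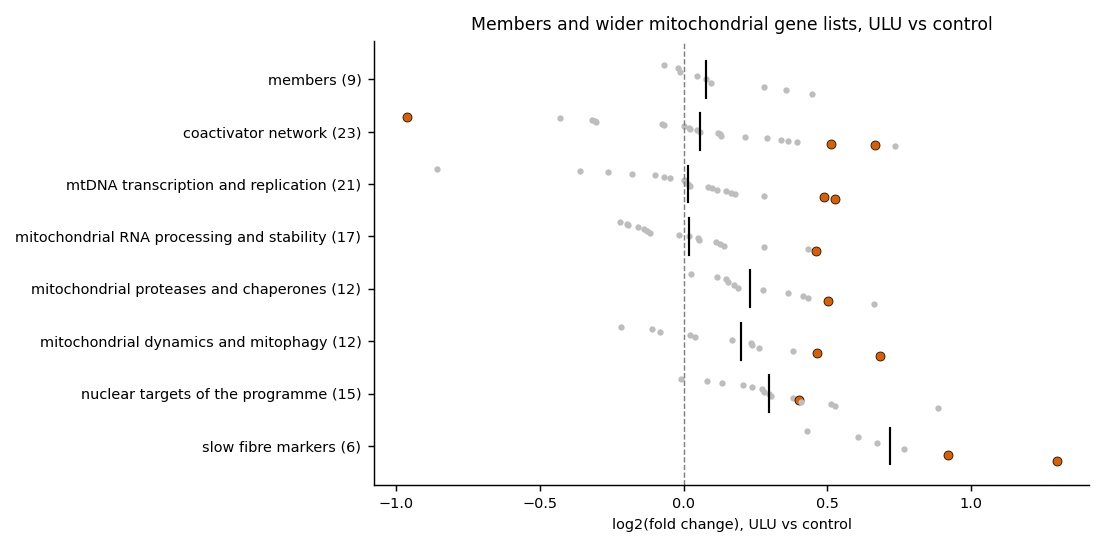
The log2(fold change) in ULU vs control of the 9 tested genes and of the tested genes of wider lists (1 point per gene, number of genes in brackets); orange points passed an edgeR adjusted p of 0.05, and the black line is the median of the list. The 9 members lie between -0.07 and 0.445 with none in orange, and the lists of proteases, of nuclear targets and of slow fibre markers lie mostly to the right of 0.

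Marker genes of cell types differed between the diets in part, and the cell make-up itself was not measured. Markers of muscle fibres were present in every library, at a summed 119500 to 186300 CPM in control and 166200 to 306600 CPM in ULU for 6 genes, and 2 of the 6 were higher in ULU vs control, TNNT3 (log2(fold change) 0.66, edgeR adjusted p = 0.0280) and MYH2 (0.53, edgeR adjusted p = 0.0397). Of 6 slow fibre markers 2 were higher, TNNT1 (1.30, edgeR adjusted p = 0.0178) and TNNI1 (0.92, edgeR adjusted p = 0.0406), and the summed level was 2599 to 6006 CPM in control and 4669 to 10270 CPM in ULU. Over each list the median log2(fold change) was 0.54 for fibre and 0.72 for slow fibre markers in this comparison, with 6 of 6 above 0 in each. These genes had, without UL 27 and ULU 40, log2(fold change) values of 0.64 (TNNT3), 0.53 (MYH2), 1.17 (TNNT1) and 0.805 (TNNI1), and none of the 4 passed. Their calls held in 11, 8, 15 and 8 of the 17 fits that left out 1 library. Of 5 adipocyte, 5 endothelial, 6 fibroblast, 5 leukocyte and 3 erythroid markers tested, 0 passed, and no marker was at 0 in all libraries. In ULU vs control the adipocyte (median log2(fold change) -1.10), fibroblast (-0.33) and leukocyte markers (-0.62) had 0 members above 0, while 2 of 5 endothelial (-0.19) and 3 of 3 erythroid markers (0.52) were above it. The adipocyte sum had medians of 343, 259 and 235 CPM in control, UL and ULU, and its highest value, 987 CPM, was that of control 24 alone, with the other controls at 204 to 417 CPM. With the 6 muscle fibre genes left out of the total, the difference in the MT share was -3.45 points in UL vs control and -4.78 points in ULU vs control (adjusted exact permutation p = 0.0195 and 0.0130). The part of fibre and cell make-up in the levels of the 10 genes was not tested.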

How the data were processed

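RNA from longissimus muscle of 17 piglets was sequenced as single reads of 75 bases. Per the submitters' notes and the file header, the authors trimmed reads with fastp, aligned them with HISAT2 to Sscrofa11.1 and deposited raw counts per gene made with featureCounts (Ensembl release 104) without strand; reads placed at several sites or in several genes were not counted. Symbols came from a name table matching 15029 identifiers. Counts were filtered (filterByExpr, 14203 genes), scaled by TMM and tested with edgeR 4.0.16 (quasi-likelihood, 3 diets in 1 fit, Benjamini-Hochberg adjustment over all genes). DESeq2 1.42.0 was an alternative. MT shares were compared by exact permutation tests, and correlations by 100000 permutations over 9 members, since ESRRA failed the filter. Log2 CPM used a prior count of 2. The code was checked on simulated data. All 10 members were described, and list genes were named when past an adjusted p of 0.05. GABPA, TFB1M, TEFM, SSBP1 and LRPPRC, which did not pass, were named as well. The members and lists were chosen with earlier results of these data known. Each p-value takes the piglet as its unit, and those of diet comparisons set a difference against the spread between piglets.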

Additional observations from a re-analysis of the deposited data

Results flagged for a closer look

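In 6 of 39 sets of values (10 genes and 3 MT shares in 3 diets) the highest library was far from the others of its diet. Chance alone gives about 1 in 20 for independent sets. These sets share libraries, and UL 27 recurs among the 6, so they cannot be judged against that rate. UL 27 was far above the other UL libraries for TFAM (87.3 CPM against 49.5 to 59.6), TFB2M (45.7 CPM against 21.4 to 28.7), NRF1 (18.9 CPM against 10.99 to 13.6) and TWNK (12.6 CPM against 6.82 to 8.70). ULU 40 was far above the other ULU libraries for TFB2M (40.8 CPM against 27.3 to 31.0). UL 31 was far above the other UL libraries for PPARGC1A (32.3 CPM against 23.2 to 26.1). UL 27 and ULU 40 are the libraries with 11 and 10 ATP8 reads and the lowest MT shares of their diets, and the part of this in their levels was not tested.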

How the results depend on the processing

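The counts of genes past both thresholds depended on the tool and the libraries. With DESeq2 on the 2 diets compared, 10 genes passed in UL vs control, 67 in ULU vs control and 4 in ULU vs UL, beside 0, 59 and 2 with edgeR. At the adjusted p alone, 148, 828 and 238 passed, beside 0, 423 and 5. With edgeR on 2 diets, 27 and 1 passed in the ULU comparisons (111 and 1 at the adjusted p alone). With log2 library size as a covariate 5 and 1 passed (12 and 1), and without a count filter 228 and 8 at the adjusted p alone. Without UL 27 and ULU 40, an alternative chosen after seeing the data, 1, 32 and 2 passed (3, 183 and 3). Leaving out 1 library gave 0 to 2, 30 to 121 and 1 to 3 genes (0 to 16, 147 to 799 and 1 to 7), with the highest ULU vs control counts without control 25.

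For the 9 members, 417 values from fits without 1 library and 178 from other settings kept direction and side of the threshold, 42 and 10 changed sign, and 1 (TFAM in ULU vs control with DESeq2) newly passed. Values that changed sign were between -0.07 and 0.094 in the fit of all 17 libraries. The one farthest from 0 after the change was 0.152, for NRF1 in ULU vs UL. In ULU vs control, POLG was 0.006 without the filter and 0.007 with the covariate, and LONP1 was -0.008 with the covariate. In ULU vs UL, LONP1 was -0.02 with the covariate and POLRMT was 0.004 with DESeq2, 0.001 on nuclear genes only and 0.005 without the filter. Without UL 27 and ULU 40, TFAM was -0.12 and LONP1 -0.064 in UL vs control, and NRF1 was 0.152 in ULU vs UL. Leaving out 1 library gave, in UL vs control, -0.008 to 0.338 for PPARGC1A, -0.173 to 0.041 for NRF1, -0.12 to 0.063 for TFAM and -0.063 to 0.112 for LONP1. In ULU vs control it gave -0.203 to 0.016 for NRF1, -0.128 to 0.117 for TFB2M, -0.001 to 0.179 for POLRMT, -0.056 to 0.038 for POLG and -0.032 to 0.134 for LONP1. In ULU vs UL it gave -0.14 to 0.091 for NRF1, -0.079 to 0.092 for POLRMT and -0.064 to 0.111 for LONP1.

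The MT share differences kept their side of the threshold without any 1 library, and ranged from -3.77 to -2.55, -4.91 to -4.00 and -2.001 to -0.778 points. With rRNA genes only, UL vs control was 0.00871 points and ULU vs UL -1.34 points, the latter past the threshold. The number of members correlated with the share was 0 with the protein-coding share, 0 without removal of the diet means, 0 without UL 27 and ULU 40, and 0 to 2 without 1 library (0 without UL 27 or UL 32). All 14 list and marker calls in ULU vs control were lost with library size as a covariate, with MFN2 at 0.643 and AFG3L2 at 0.493 on the log2 scale. ALAS1 (0.405), TNNT3 (0.642), MYH2 (0.533), TNNT1 (1.17) and TNNI1 (0.805) were also lost without UL 27 and ULU 40. Without COX1, an alternative chosen after seeing the data, the protein-coding share differences were -2.59, -2.62 and -0.0365 points. No paired analysis was possible because the labels do not link piglets of different diets, although the piglets were pair-fed. Depth limited ESRRA and PPARGC1B.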
